A study of Mus musculus with 12 samples.

Results

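The imprinted genes H19, Igf2, Ndn, Dlk1, Meg3, Peg3, Mest, Grb10 and Plagl1 were followed through an RNA sequencing study of C2C12 cells, an established line of mouse myoblasts. The 9 genes were taken by name, through the gene identifiers of a table of 55416 genes. No rule on their measured values was used, but earlier results of these data were known when they were chosen. Of the 9 genes, 7 had a count in any library and 5 (H19, Igf2, Ndn, Peg3 and Mest) had enough counts to test. Further lists of 52 other imprinted genes, of IGF signalling and of targets of the H19 products are described where they bear on the 9 genes.

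Imprinted genes are transcribed wholly or mainly from the maternal or the paternal allele, in some tissues or in all, and many of them act on growth. H19 is a maternally expressed long noncoding RNA of developing muscle that hosts a microRNA and is known to bind let-7, and Igf2 encodes the growth factor IGF2 and is expressed from the paternal allele of the same locus. An imprinting control region that binds CTCF on the maternal allele directs shared enhancers to H19 on that allele and to Igf2 on the paternal allele. Each gene was counted over both alleles, so the counts carry no information on which allele was transcribed.

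There were 4 groups of 3 libraries, labelled as biological replicates. Cells labelled as Mapk14 knockout (KO; the labels write Mapk14-/-) were cultured for 5 days in differentiation medium (DM, 2% horse serum) or in growth medium (GM, 10% fetal bovine serum), and wild-type (WT) C2C12 cells likewise. The number of KO clones and the way the gene was edited were not stated by the labels, and clone and genotype cannot be told apart. Library totals were 8821669 to 11536396 counts, so that 3 counts, taken as the limit that a count of 0 allows, stood for 0.26 to 0.34 CPM (counts scaled to library size) in a library.

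Mapk14, which encodes the kinase p38 alpha, was not called lower in the libraries labelled KO, with a log2 fold change of -0.03 ± 0.08 (SE) against WT in DM and 0.11 ± 0.08 in GM (edgeR, adjusted p = 0.822 and 0.35). Counts over a whole gene do not show a small deletion, and the groups are called KO by their labels. A list of 5 myoblast and muscle markers had a summed level of 869 to 998 CPM in KO DM, 261 to 327 CPM in KO GM, 2913 to 2945 CPM in WT DM and 1321 to 1499 CPM in WT GM. Of 5 leukocyte markers, Ptprc and Adgre1 were at 0 counts in all 12 libraries, while the summed level lay between 16.2 and 20.9 CPM in KO DM, 13.6 and 14.5 in KO GM, 12 and 14.1 in WT DM, and 11.2 and 14.1 in WT GM. Lyz2 of that list rose with the KO label by 2.10 ± 0.26 (log2, SE) in DM and by 0.82 ± 0.27 in GM (edgeR, adjusted p = 1.25e-06 and 0.0345). Of 4 neural and Schwann cell markers Sox10 was at 0, and the sum lay between 6.5 and 7.66 CPM in KO DM, 14.7 and 18.6 in KO GM, 50.7 and 51.4 in WT DM, and 45.7 and 56.2 in WT GM, nearly all of it Tubb3, which fell with the KO label by 3.10 ± 0.13 in DM and by 1.68 ± 0.11 in GM (adjusted p = 5.08e-14 and 1.98e-10). Markers of endothelium, epithelium and adipocytes summed to at most 0.798 CPM in any library, with Epcam, Krt18, Adipoq and Cidec at 0. The part of these markers in the results was not tested. Both GM replicate 3 libraries stood apart: pairs that held one of them had a chi-square per degree of freedom of 9.9 to 14.9 over genes, against 3.58 to 6.44 for the other pairs of replicates. Values without both of these libraries are given beside H19, Igf2, Mest, Zim1, Hmga2, Myog, Acta1, Mymk, Mki67 and Ccna2. In each GM group that fit kept replicates 1 and 2. The choice rested on the spread seen in these same data, and by itself can narrow the SE. Calls from that fit are therefore a description only.

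H19, Igf2 and Mest host microRNAs, which are printed as products of genes described here; of their targets, only those of miR-675 are described further on. Mir675 lies in an exon of H19, Mir483 in an intron of Igf2 and Mir335 in an intron of Mest. The RefSeq mature sequences (GRCm38.p6) follow 5′ to 3′ with the seed, bases 2 to 8, in capitals.
miR-675-5p of H19 (chr7:142577112-142577133, minus strand): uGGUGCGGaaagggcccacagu
miR-675-3p of H19 (chr7:142577078-142577099, minus strand): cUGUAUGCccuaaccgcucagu
miR-483-5p of Igf2 (chr7:142654968-142654989, minus strand): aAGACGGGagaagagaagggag
miR-483-3p of Igf2 (chr7:142654932-142654952, minus strand): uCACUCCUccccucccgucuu
miR-335-5p of Mest (chr6:30741314-30741336, plus strand): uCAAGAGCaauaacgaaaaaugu
miR-335-3p of Mest (chr6:30741354-30741375, plus strand): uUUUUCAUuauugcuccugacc
None of these 6 seeds was shared with another mature mouse microRNA of the RefSeq table. Mir675, Mir483 and Mir335 had 0 counts as genes of their own in all 12 libraries. Mature microRNAs were not measured by these libraries, and the counts of the host genes say nothing of how much of each microRNA was made.

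H19 (ENSMUSG00000000031, chromosome 7, minus strand) rose with DM in both genotypes and fell with the KO label in both media. It was at 1222, 1130 and 1259 CPM in KO DM, 332, 254 and 542 CPM in KO GM, 4587, 4341 and 4252 CPM in WT DM and 968, 1119 and 2257 CPM in WT GM. Within each genotype the DM libraries were all above the GM libraries, within each medium the KO libraries were all below the WT libraries, and KO DM lay in the range of WT GM. In WT DM the gene took 0.416 to 0.451% of all counts of a library.

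H19 was 3.2-fold higher in KO DM than in KO GM, a log2 fold change of 1.68 ± 0.37 (SE; adjusted p = 0.00632, edgeR's quasi-likelihood test with Benjamini-Hochberg adjustment over 13250 genes, n = 3 libraries a group). It was 3.03-fold higher in WT DM than in WT GM (log2 1.60 ± 0.36, adjusted p = 0.00943). The responses differed by 0.08 ± 0.50 (KO minus WT, adjusted p = 0.952), and this SE is too wide to show that they were alike. Against WT, H19 fell by 1.87 ± 0.37 on the log2 scale in KO DM (adjusted p = 0.00492) and by 1.95 ± 0.37 in KO GM (adjusted p = 0.00622). In a bulk sample, fewer cells of a type and less RNA per cell cannot be told apart.

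Each GM replicate 3 library had the most H19 of its group. Without both of them the responses to DM were 2.06 ± 0.10 in KO cells and 2.07 ± 0.10 in WT cells, and the changes with the KO label were -1.85 ± 0.08 in DM and -1.84 ± 0.10 in GM, all called. The KO GM difference missed the threshold in a fit of only the 6 GM libraries (-1.95 ± 0.50, adjusted p = 0.0833).

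Igf2 (ENSMUSG00000048583, chromosome 7, minus strand), the ligand gene beside H19, fell with the KO label in both media and rose with DM in KO cells. Its values were 67.9, 68.1 and 71.2 CPM in KO DM, 30.8, 27.9 and 42.7 CPM in KO GM, 146, 146 and 122 CPM in WT DM and 93.1, 114 and 170 CPM in WT GM. The KO DM libraries were all above the KO GM libraries, every KO library was below every WT library, and the 2 WT groups overlapped. In the GENCODE M21 annotation Igf2 shares 3596 exon bases with Gm49394, which had 15 counts over all libraries.

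In KO cells Igf2 was 2.04-fold higher in DM than in GM (log2 1.03 ± 0.24, adjusted p = 0.00778). In WT cells the change was 0.14 ± 0.22 (adjusted p = 0.688), and it was called when WT GM replicate 3 was left out (0.41 ± 0.14, adjusted p = 0.0411) and when both GM replicate 3 libraries were (0.41 ± 0.09, adjusted p = 0.000175). Without WT GM replicate 1 it was -0.05 ± 0.19. The response was larger in KO than in WT cells by 0.89 ± 0.32, which did not pass (adjusted p = 0.135). That difference passed under 4 of the alternatives, among them the fit without both GM replicate 3 libraries (0.84 ± 0.13, adjusted p = 1.18e-05). With the KO label Igf2 fell by 1.00 ± 0.22 in DM (adjusted p = 0.00859) and by 1.89 ± 0.24 in GM (adjusted p = 0.000468).

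H19 and Igf2 could be set against each other without any scaling, as the log2 ratio of their counts within a library. The ratio was 4.17, 4.05 and 4.14 in KO DM, 3.43, 3.18 and 3.67 in KO GM, 4.97, 4.89 and 5.12 in WT DM and 3.38, 3.30 and 3.73 in WT GM. Both DM groups lay above their GM groups, KO DM lay wholly below WT DM, and the 2 GM groups overlapped. DM minus GM was 0.70 in KO cells and 1.53 in WT cells, and KO minus WT was -0.87 in DM, each with an exact 2-sided permutation p of 0.1, the smallest that 3 against 3 libraries can give. In GM the KO minus WT difference was -0.04 (exact permutation p = 0.8). The ratio carries the lengths of both transcripts, so its changes and not its level compare the genes.

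**Figure D1:**
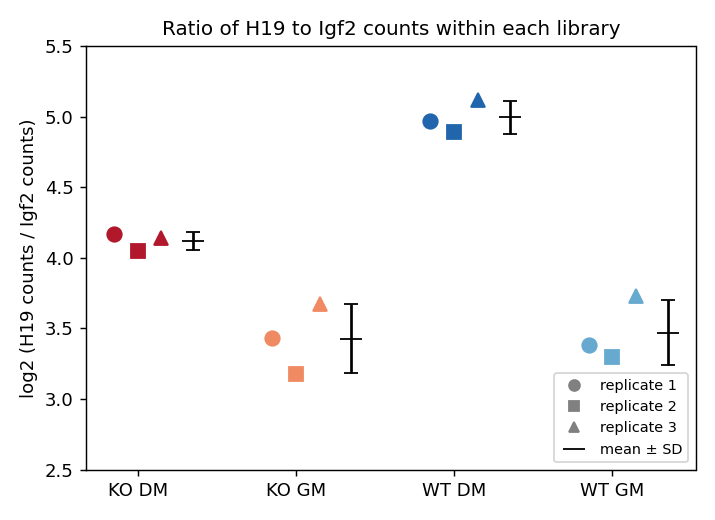
Log2 ratio of H19 to Igf2 counts (vertical axis) in each of the 12 libraries, by group (horizontal axis); points are libraries and the bars are mean ± SD of n = 3. WT DM lay highest at 4.89 to 5.12 and the 2 GM groups overlapped between 3.18 and 3.73.

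Ndn (ENSMUSG00000033585, chromosome 7, plus strand) encodes necdin, a protein of the MAGE family that promotes differentiation of mouse myoblasts. It had 0 counts in all 6 KO libraries. In WT DM it had 27, 31 and 43 counts (3.11, 3.17 and 4.29 CPM) and in WT GM 29, 33 and 36 counts (2.98, 3.55 and 3.59 CPM). The gene passed the filter on low counts through WT libraries alone, so a difference between the genotypes had to follow. Taken against 3 counts over a group of KO libraries, it was at least 37-fold lower in KO DM than in WT DM and at least 36.1-fold lower in KO GM than in WT GM. The WT change with DM was 0.07 ± 0.31 (adjusted p = 0.897), and no change can be given between the KO groups.

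Other genes of the same imprinted domain on chromosome 7 were counted in both genotypes or in neither. Snrpn, which encodes a spliceosomal protein, had 634 counts in the 6 KO libraries and 629 in the 6 WT libraries, and Peg12 had 217 and 147. Neither was called with the KO label in DM (log2 -0.05 ± 0.17 for Snrpn and 0.29 ± 0.37 for Peg12, adjusted p = 0.86 and 0.608) or in GM (-0.21 ± 0.18 and 0.50 ± 0.35, adjusted p = 0.445 and 0.343). Mkrn3 had 21 KO and 27 WT counts, and Magel2 was at 0 in all 12 libraries. Snhg14, which shares an annotated start with Snrpn, had 1237 KO and 1306 WT counts. It fell with the KO label in DM (-0.44 ± 0.13, adjusted p = 0.0123) and was not called in GM (0.02 ± 0.13, adjusted p = 0.945).

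Peg3 (ENSMUSG00000002265, chromosome 7, minus strand) encodes a zinc finger protein that binds DNA. It had 55.9, 61.5 and 64.1 CPM in KO DM, 41.5, 39.1 and 45 CPM in KO GM, 111, 141 and 115 CPM in WT DM and 67.4, 66.9 and 73 CPM in WT GM. No 2 groups overlapped between media or between genotypes, and the replicates were tight. Peg3 rose 1.45-fold with DM in KO cells (log2 0.53 ± 0.09, adjusted p = 9.08e-05) and 1.77-fold in WT cells (0.82 ± 0.09, adjusted p = 2.28e-07). With the KO label it fell by 1.01 ± 0.09 in DM (adjusted p = 1.34e-08) and by 0.72 ± 0.09 in GM (adjusted p = 5.64e-06). The responses to DM differed by -0.29 ± 0.13 (adjusted p = 0.179). All 4 called changes kept their direction and their call under each of 23 alternatives.

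Usp29, a paternally expressed gene for a ubiquitin protease, starts 164 bases from Peg3 on the opposite strand (RefSeq, GRCm38.p6), so that 1 stretch of DNA serves both starts. Usp29 had 0.608, 0.56 and 0.279 CPM in KO DM, 0.215, 0.173 and 0.177 in KO GM, 1.73, 2.96 and 2.1 in WT DM and 1.34, 1.5 and 1.4 in WT GM, and reached 10 counts in WT libraries only. The log2 fold change with the KO label was -2.22 ± 0.43 in DM and -2.84 ± 0.55 in GM, given as a description, because Usp29 passed the filter on low counts through WT libraries alone and a difference had to follow. Zim1, a maternally expressed zinc finger gene of the same domain, rose with DM by 0.83 ± 0.22 in KO cells and 1.05 ± 0.21 in WT cells (adjusted p = 0.00437 and 0.000501). Its changes with the KO label were -0.49 ± 0.20 in DM and -0.27 ± 0.23 in GM (adjusted p = 0.0699 and 0.463), and the DM change was called without both GM replicate 3 libraries (-0.47, adjusted p = 0.0403).

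The window from 250 bases before to 50 after the annotated start of Peg3 is printed because Peg3 and Usp29 start within it. GGGGCCCC, which reads the same on both strands, is in capitals. It was in 1.08% of the 32851 promoter windows of the RefSeq table. CANNTG, the E-box core that MYOD1 and MYOG bind, was searched on both strands and was not in this window, against 72.3% of all windows. Neither the match nor its lack says whether a factor bound here.
Peg3 start (chr7:6730370-6730669, minus strand, GRCm38.p6): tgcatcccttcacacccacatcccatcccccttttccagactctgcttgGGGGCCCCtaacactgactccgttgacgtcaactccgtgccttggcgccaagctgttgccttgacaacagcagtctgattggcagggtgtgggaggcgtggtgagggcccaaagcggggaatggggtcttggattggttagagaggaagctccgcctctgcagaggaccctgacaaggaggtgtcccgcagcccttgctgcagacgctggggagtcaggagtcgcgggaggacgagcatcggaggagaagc

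Mest (ENSMUSG00000051855, chromosome 6, plus strand), which encodes an enzyme of the alpha/beta hydrolase fold, rose with DM and was not called with the KO label. It was at 14.6, 13.3 and 10.9 CPM in KO DM, 3.87, 3.38 and 7.09 CPM in KO GM, 15.2, 16.8 and 15 CPM in WT DM and 5.55, 5.48 and 4.99 CPM in WT GM. The DM libraries were all above the GM libraries of their genotype, KO DM lay just below WT DM, and the GM groups overlapped. The rise with DM was 2.68-fold in KO cells (log2 1.42 ± 0.21, adjusted p = 1.12e-05) and 2.93-fold in WT cells (1.55 ± 0.21, adjusted p = 4.36e-06). The change with the KO label was -0.28 ± 0.19 in DM and -0.15 ± 0.23 in GM (adjusted p = 0.289 and 0.712). KO GM replicate 3 had the most Mest of its group, and without both GM replicate 3 libraries the rise in KO cells was 1.86 ± 0.21 and the KO change in GM was -0.62 ± 0.25, still not called (adjusted p = 0.0648). Copg2, a coat protein gene on the opposite strand that shares 912 exon bases with Mest in the GENCODE M21 annotation, rose with DM by 0.40 ± 0.09 in either genotype (adjusted p = 0.00066 in KO and 0.000829 in WT). The strand setting of the counting is not given in the sources used here, so reads of the shared bases cannot be told apart.

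Of the other 4 genes, Dlk1, a membrane protein related to NOTCH ligands, and Meg3, a maternally expressed noncoding RNA, had 0 counts in all 12 libraries, which allows up to 0.0248 CPM over the libraries together. Rtl1, Rian and Mirg of the same domain on chromosome 12 were also at 0, and Dio3 had 12 counts in all. Grb10, an adaptor that restrains insulin and IGF receptors, had 1, 0, 2 and 5 counts in KO DM, KO GM, WT DM and WT GM. Plagl1, a zinc finger transcription factor, had 3, 8, 7 and 9 counts in those groups. Differences in Grb10 and Plagl1 were not detectable at this depth, and with no filter neither was called in any comparison (adjusted p from 0.204 to 0.969).

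**Figure D2:**
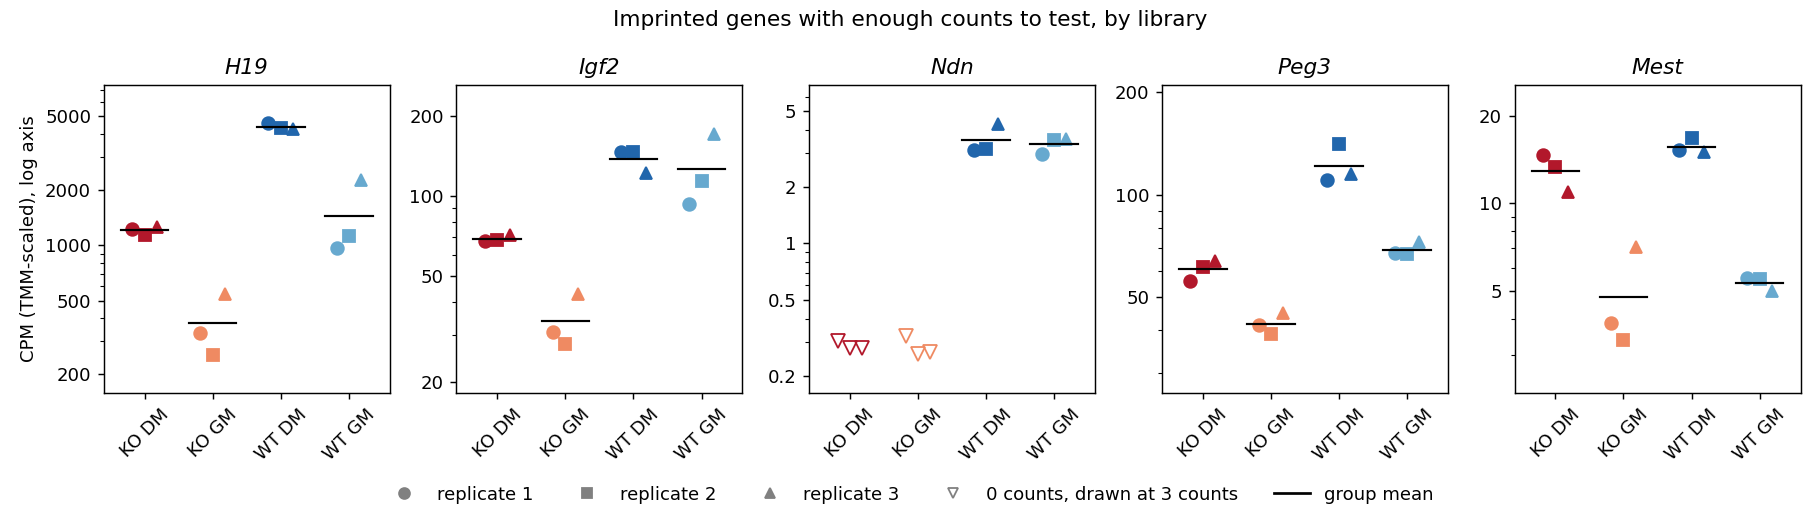
CPM (vertical log axis) of the 5 tested genes in each library, by group (horizontal axis); lines are group means and open triangles mark 0 counts, drawn at the level of 3 counts. H19, Igf2 and Peg3 were lower in every KO library than in every WT library of the same medium, Ndn was at 0 in the 6 KO libraries, and Mest differed mainly between the media.

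Read over the genes, the KO label and the medium gave different patterns. With the KO label in DM, H19, Igf2, Peg3 and Ndn fell, where 13.6% of all genes tested were called higher, 17.4% lower and 31% in all. The same 4 genes fell in GM, where 10% were called higher, 10.6% lower and 20.7% in all, and Mest passed in neither medium. With DM, H19, Igf2, Peg3 and Mest rose in KO cells (20.8% of all genes called higher, 19.8% lower and 40.6% in all), and H19, Peg3 and Mest rose in WT cells (18.4% higher, 14.8% lower and 33.2% in all). Since Ndn had to differ to be tested, its count adds nothing to the others. The difference between genotypes in the response to DM could be tested for 4 genes. EdgeR's test called 0 of them, where 3.61% of all genes were called higher, 5.25% lower and 8.86% in all, limma-voom called 1 (Igf2) and DESeq2 called 0. Over all genes that split, 478 higher and 696 lower, turned to 683 higher and 498 lower with scaling by total counts alone. The same scaling gave 2134 higher and 1968 lower for KO DM against WT DM, where the TMM scaling used here gave 1802 and 2312, and 2178 higher and 2430 lower for WT DM against WT GM, where TMM gave 2442 and 1963. Of the 4, Igf2 and Peg3 were under 0.05 in edgeR's test before adjustment. The 2 comparisons with WT share no libraries with each other, but each shares its libraries with the comparisons of media.

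**Figure D3:**
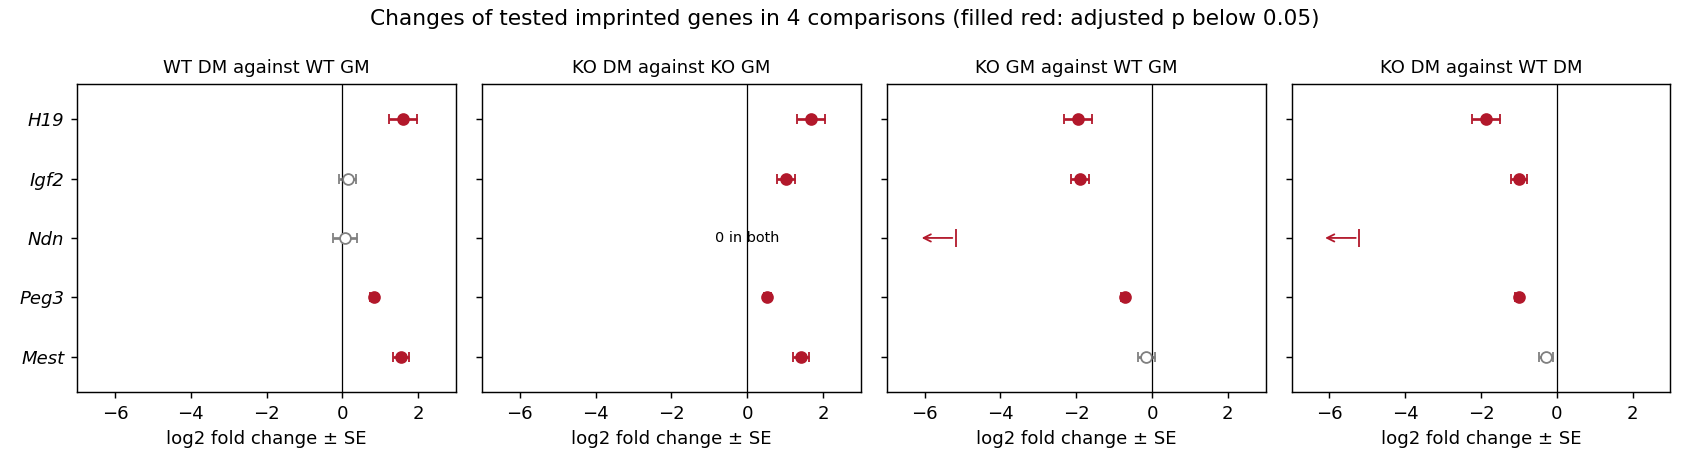
Log2 fold change ± SE (horizontal axis) of the 5 tested genes (vertical axis) in the 4 comparisons; filled red points were called and open grey points were not, and arrows for Ndn start at the lower bound. H19 and Mest had the largest rises with DM, and Mest was the only gene of the 5 with both KO changes uncalled.

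Among 52 other imprinted genes, 43 had a count and 28 were tested, 14 listed as paternally and 14 as maternally expressed. Of these, Usp29 and Airn passed the filter on low counts through WT libraries alone, and Rasgrf1 and Slc22a18 through KO libraries alone, so that a difference between the genotypes was built into their choice. Of the 11 paternally expressed genes that passed in each genotype, 5 fell and 0 rose with the KO label in DM, where 31% of all genes tested were called, and 3 fell and 0 rose in GM, where 20.7% were called. Of the 13 such maternally expressed genes, 1 fell and 0 rose in DM, and 1 fell and 1 rose in GM. Over all 14 tested genes of each kind the list median was -0.41 and -0.27 for the paternal genes in DM and GM, -0.10 and 0.01 for the maternal genes, beside -0.02 and -0.00 for all genes tested. These medians take in Usp29, Airn, Rasgrf1 and Slc22a18, and are therefore a description only. The kind is that of the list, and which allele these cells transcribed was not measured. Whether the 2 lists differ was not tested. Among genes with too few counts to test, Ins2 had 26 counts in the 6 WT libraries and Kcnq1 13, both with 0 in the 6 KO libraries. Ppp1r9a, with 4 counts, and Slc22a3 and Kcnk9, with 2 each, also had counts in WT libraries only. Ascl2, with 2 counts, and Slc38a4 and Phlda2, with 1 each, had them in KO libraries only.

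Peg10, a retrotransposon-derived gene active in placenta, and its neighbour Sgce, for epsilon-sarcoglycan of the muscle membrane, both fell. Peg10 had 2.33, 3.74 and 4.46 CPM in KO DM, 2.58, 3.47 and 3.46 in KO GM, 52.2, 57.6 and 64.8 in WT DM and 18.7, 20.3 and 26.3 in WT GM. Every KO library was far below every WT library. It fell by 4.04 ± 0.18 in KO DM and by 2.77 ± 0.19 in KO GM (adjusted p = 1.96e-13 and 5.28e-10). Peg10 rose with DM in WT cells (1.42 ± 0.14, adjusted p = 8.32e-08), was 0.14 ± 0.24 in KO cells (adjusted p = 0.678), and was, by edgeR's test on all 12 libraries, the only imprinted gene whose response differed by genotype (-1.27 ± 0.28, adjusted p = 0.00677). Sgce fell by 1.01 ± 0.14 in KO DM and by 1.17 ± 0.14 in KO GM (adjusted p = 5.45e-06 and 1.31e-06).

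Rasgrf1, a paternally expressed gene that encodes an exchange factor for RAS, had higher values with the KO label. It had 2.74, 1.96 and 1.95 CPM in KO DM, 6.44, 6.76 and 3.64 in KO GM, 0.115, 0.715 and 0.399 in WT DM and 1.23, 0.537 and 0.499 in WT GM. The KO libraries were above the WT libraries in both media (log2 2.36 ± 0.50 in DM and 2.87 ± 0.40 in GM), a difference that its passing the filter through KO libraries alone had fixed. Rasgrf1 fell with DM in KO cells (-1.34 ± 0.34, adjusted p = 0.003).

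Igf2r, the maternally expressed receptor that takes up IGF2 for breakdown, fell by 0.68 ± 0.09 in KO DM and by 0.70 ± 0.10 in KO GM (adjusted p = 7.71e-06 and 1.07e-05). Airn, the noncoding RNA that silences the paternal Igf2r allele in mice, had 9 counts in the 6 KO libraries against 54 in the 6 WT libraries and reached 10 counts in WT libraries only. The log2 fold change with the KO label was -2.57 ± 0.72 in DM and -2.73 ± 0.90 in GM, and since Airn passed the filter through WT libraries alone a difference had to follow. Smaller falls in KO DM were those of Peg13 (0.38 ± 0.12, adjusted p = 0.0197), Snhg14 (0.44 ± 0.13, adjusted p = 0.0123) and Inpp5f (0.48 ± 0.12, adjusted p = 0.00299). The first was lost in 4 alternatives, the next in 2 and the last in none. Snhg14 shares 1803 exon bases with Ube3a on the opposite strand.

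With DM, 8 of the 28 genes rose and 5 fell in KO cells, and 8 rose and 3 fell in WT cells. That was 46.4% and 39.3% of the list called, near the 40.6% and 33.2% of all genes tested. Of the 14 genes listed as maternally expressed, 7 rose and 3 fell in KO cells (71.4% called) and 6 rose and 2 fell in WT cells (57.1%). Of the 14 listed as paternally expressed, 1 rose and 2 fell in KO cells and 2 rose and 1 fell in WT cells (21.4% in each). The difference between the lists was not tested. Gnas, for the stimulatory G protein subunit, rose by 0.29 ± 0.07 in KO cells and 0.40 ± 0.07 in WT cells (adjusted p = 0.00128 and 5.5e-05), and shares exon bases with Gm20721 and Nespas on the opposite strand. Tssc4 rose by 0.46 ± 0.11 and 0.61 ± 0.11 (adjusted p = 0.00216 and 0.000175). Peg13 fell by 0.78 ± 0.12 and 0.75 ± 0.11 (adjusted p = 1.1e-05 and 1.82e-05), and Blcap by 0.48 ± 0.09 and 0.58 ± 0.10 (adjusted p = 0.000323 and 4.6e-05). Cdkn1c, the imprinted inhibitor of cyclin-dependent kinases on chromosome 7, was not called in any comparison (adjusted p from 0.123 to 0.468).

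**Figure D4:**
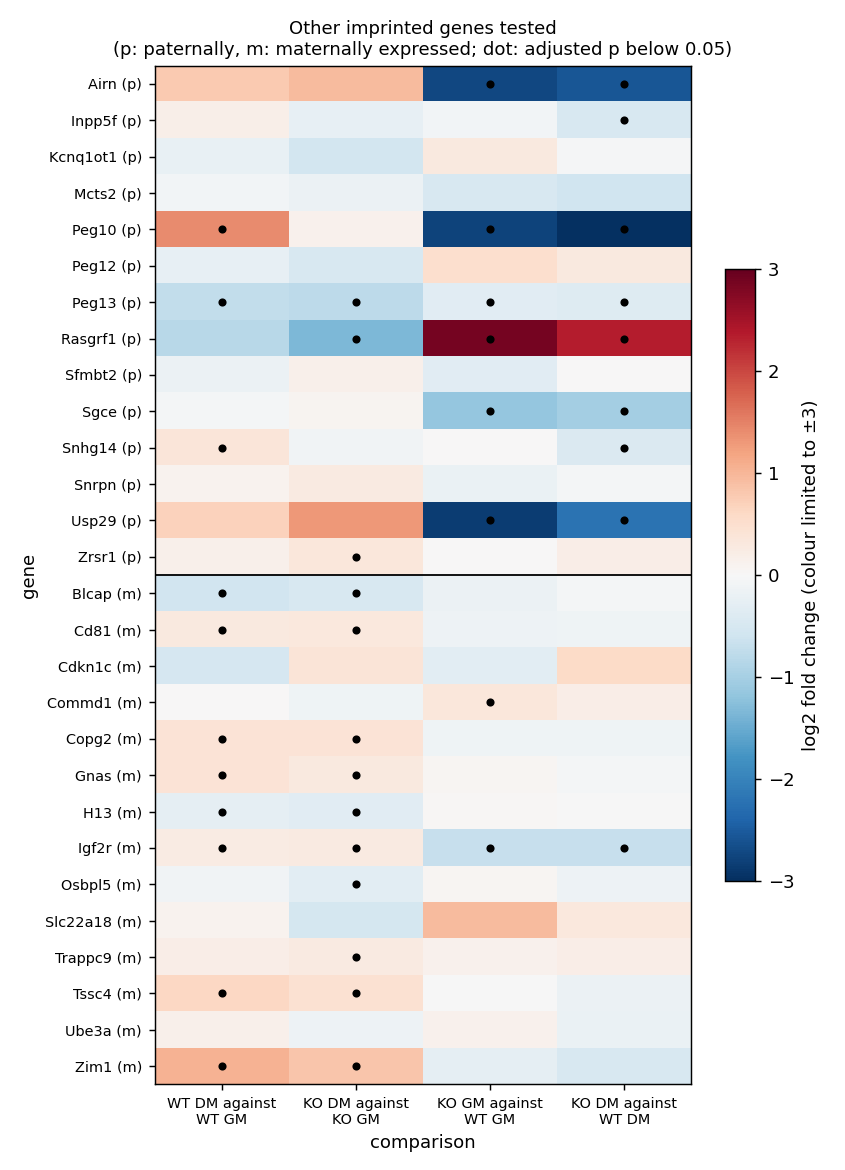
Log2 fold change (colour) of the 28 other imprinted genes tested (rows, p for paternally and m for maternally expressed) in the 4 comparisons (columns); a dot marks an adjusted p below 0.05. Peg10 and Sgce were lower with the KO label in both media, as were Usp29 and Airn, which passed the filter on low counts through WT libraries alone, and Rasgrf1, which passed through KO libraries alone, was higher.

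Genes that receive or modify the IGF2 signal moved in both directions. Of 11 genes listed and tested, 3 rose and 3 fell with the KO label in each medium, 6 rose and 3 fell with DM in KO cells, and 5 rose and 3 fell with DM in WT cells. The share called was 54.5% with the KO label in either medium (31% of all genes in DM and 20.7% in GM), and 81.8% in KO and 72.7% in WT cells with DM (40.6% and 33.2% of all genes). Igf1r, the signalling receptor of IGF2, was not called, with 0.06 ± 0.10 in KO DM and -0.09 ± 0.10 in KO GM against WT (adjusted p = 0.691 and 0.594). Among the binding proteins, which hold IGF2 outside the cell, Igfbp4 fell by 2.07 ± 0.22 in KO DM and by 3.30 ± 0.24 in KO GM (adjusted p = 2.9e-05 and 3.31e-06). Igfbp3 rose by 2.30 ± 0.10 and 1.17 ± 0.10 (adjusted p = 1.14e-13 and 8.44e-09). Igfbp5, which is induced when C2C12 cells differentiate, had 633, 674 and 673 CPM in KO DM, 118, 125 and 194 in KO GM, 913, 1048 and 922 in WT DM and 712, 681 and 643 in WT GM. It fell by 2.22 ± 0.16 with the KO label in GM (adjusted p = 1.29e-06), and its response to DM was larger in KO cells by 1.68 ± 0.21 (adjusted p = 0.000853). Irs1, the adaptor below the IGF and insulin receptors, rose in all 4 comparisons by 0.59 to 0.78 (adjusted p from 4.17e-08 to 2.11e-06).

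Smad1, Smad5 and Cdc6 are targets of miR-675 in mouse muscle. Smad5 was not called in any comparison (log2 0.00 ± 0.07 in KO DM against WT DM, adjusted p = 0.985). Smad1 rose with the KO label by 0.42 ± 0.08 in DM (adjusted p = 0.000187) and by 0.23 ± 0.08 in GM (adjusted p = 0.033), and the GM call was lost under 7 alternatives. Cdc6, which licenses replication origins, had 44.8, 44.8 and 37.8 CPM in KO DM, 53, 55.1 and 46.6 in KO GM, 46.7, 45.2 and 46.5 in WT DM and 23, 21.1 and 24.4 in WT GM. WT GM alone stood low: Cdc6 rose by 1.17 ± 0.10 in KO GM against WT GM (adjusted p = 1.2e-08) and by 1.01 ± 0.10 in WT DM against WT GM (adjusted p = 5.78e-08), and its responses to DM differed by -1.29 ± 0.14 (adjusted p = 4.02e-06). Whether miR-675 had a part in these values was not tested.

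Of 5 let-7 targets listed, 4 were tested. Hmga2, an architectural chromatin protein of immature cells, had 20.6, 18.8 and 16.6 CPM in KO DM, 267, 263 and 167 in KO GM, 52.4, 60.2 and 41.7 in WT DM and 207, 202 and 138 in WT GM. It fell with DM by 3.64 ± 0.26 in KO cells and by 1.83 ± 0.24 in WT cells (adjusted p = 5.31e-06 and 0.000348), and the fall was larger in KO cells by 1.81 ± 0.35 (adjusted p = 0.0152). With the KO label Hmga2 changed by -1.46 ± 0.27 in DM and by 0.35 ± 0.22 in GM (adjusted p = 0.00303 and 0.334). The GM change was called without both GM replicate 3 libraries (0.36, adjusted p = 0.00855). Igf2bp3, an RNA-binding protein named for Igf2 mRNA, changed by -1.50 ± 0.42 in KO DM and by -1.61 ± 0.44 in KO GM (adjusted p = 0.00895 and 0.0107); the DM call was lost without WT DM replicate 3 (adjusted p = 0.0808) and the GM call under 3 alternatives. Igf2bp2 changed by -0.27 ± 0.11 and -0.24 ± 0.10 (adjusted p = 0.0668 and 0.118) and Dicer1 by -0.12 ± 0.09 and -0.04 ± 0.09 (adjusted p = 0.354 and 0.782). Igf2bp1 was not tested, with 0 CPM in 10 of the 12 libraries.

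Of 13 genes that set, keep, remove or read DNA methylation or act at imprints, among them Tet1, Tet2 and Tet3, which oxidise methylcytosine, 12 were tested. With the KO label 0 rose and 2 fell in DM, and 2 rose and 0 fell in GM. With DM, 1 rose and 2 fell in KO cells, and 5 rose and 0 fell in WT cells. The share called was 16.7% with the KO label in each medium and 25% in KO cells with DM, below that of all genes (31%, 20.7% and 40.6%), and 41.7% in WT cells with DM, against 33.2% of all genes. Zfp57, which binds methylated imprinting control regions, fell by 1.12 ± 0.23 in KO DM against WT DM (adjusted p = 0.000528), and in GM the change was 0.22 ± 0.22 (adjusted p = 0.542). Uhrf1, which guides maintenance methylation after replication, fell by 0.28 ± 0.08 in KO DM and rose by 0.64 ± 0.08 in KO GM (adjusted p = 0.0104 and 5.28e-06). Dnmt1, the maintenance methyltransferase, rose by 0.33 ± 0.08 in KO GM (adjusted p = 0.00262). Ctcf, which binds the control region between H19 and Igf2, was not called in any comparison (-0.17 ± 0.08 in KO DM and -0.05 ± 0.08 in KO GM, adjusted p = 0.125 and 0.721). DNA methylation was not measured.

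A panel of 8 genes of muscle and of the cell cycle was set beside these genes. All 6 muscle genes rose with DM in both genotypes, where 40.6% of all genes tested were called in KO cells (20.8% higher) and 33.2% in WT cells (18.4% higher). Of the 5 that passed the filter on low counts in each genotype, 3 fell with the KO label in DM and 5 in GM. Of all genes, 31% were called in DM (17.4% lower) and 20.7% in GM (10.6% lower). Acta1, a sarcomeric actin, and Mymk, which acts in myoblast fusion, were not called in DM (log2 -0.58 ± 0.38 and -0.73 ± 0.29, adjusted p = 0.308 and 0.0965). Without both GM replicate 3 libraries both were called there (-0.56 for Acta1 and -0.71 for Mymk, adjusted p = 0.0433 and 5.1e-10). Myog, the differentiation factor, had 316, 294 and 287 CPM in KO DM, 31.4, 16.8 and 45.9 in KO GM, 658, 592 and 595 in WT DM and 127, 143 and 220 in WT GM. As with H19, both GM replicate 3 libraries were the highest of their groups. It rose with DM by 3.26 ± 0.34 in KO cells and 1.91 ± 0.31 in WT cells (adjusted p = 8.51e-05 and 0.00169), and fell with the KO label by 1.04 ± 0.31 in DM and by 2.38 ± 0.34 in GM (adjusted p = 0.0325 and 0.00129). The DM call of Myog against WT was lost under 7 alternatives, each with a direction that did not change. Without both GM replicate 3 libraries the rises of Myog with DM were 3.68 in KO and 2.18 in WT cells, and the falls with the KO label were -1.02 in DM and -2.52 in GM, all called. Mef2c, a cofactor of MYOD1, was at 1.11, 0.654 and 1.76 CPM in KO DM, at 0 in KO GM, at 68.1, 84.3 and 73 in WT DM and at 5.76, 7.2 and 14.6 in WT GM. It was at least 99.2-fold lower in KO GM than in WT GM, and it passed the filter on low counts through WT libraries alone. Mki67, a marker of cycling cells, rose with DM by 1.42 ± 0.22 in KO cells and 1.86 ± 0.23 in WT cells (adjusted p = 0.000641 and 0.000199), and Ccna2 by 1.63 ± 0.18 and 1.93 ± 0.19 (adjusted p = 1.17e-05 and 5.24e-06). Neither was called with the KO label (0.19 ± 0.21 and 0.19 ± 0.17 in DM, 0.63 ± 0.24 and 0.48 ± 0.20 in GM, adjusted p from 0.106 to 0.556), but without both GM replicate 3 libraries Mki67 was called in DM (0.21, adjusted p = 0.031) and in GM (1.05, adjusted p = 1.49e-08) and Ccna2 in GM (0.74, adjusted p = 0.000924). The part of the muscle programme and of cell cycling in the values of H19, Igf2, Ndn, Peg3 and Mest was not tested.

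The genes closest to each imprinted gene were found by the root mean square difference of log2(CPM + 1), centred on each gene's mean, over the 12 libraries and 9325 named genes with a mean of at least 10 CPM. This measure takes in both comparisons and is a description only. H19 lay closest to Ldb3, Dysf and Trim55, which encode a Z-disc protein, the membrane repair protein dysferlin and a sarcomere-associated ubiquitin ligase, at 0.25, 0.31 and 0.32. Igf2 lay closest to Nkd2, Fmod and Socs2 (0.28, 0.30 and 0.31), Peg3 to Heg1, Serinc5 and Mknk2 (0.12, 0.12 and 0.14) and Mest to Scd2, Amot and Lrrc17 (0.18, 0.19 and 0.20). For Ndn the order was Sulf1, Myf5 and Rhou (0.22, 0.25 and 0.26), but with Ndn at 0 in the 6 KO libraries its difference on this scale is set by the pseudocount of 1, and no likeness is read from it.

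**Figure D5:**
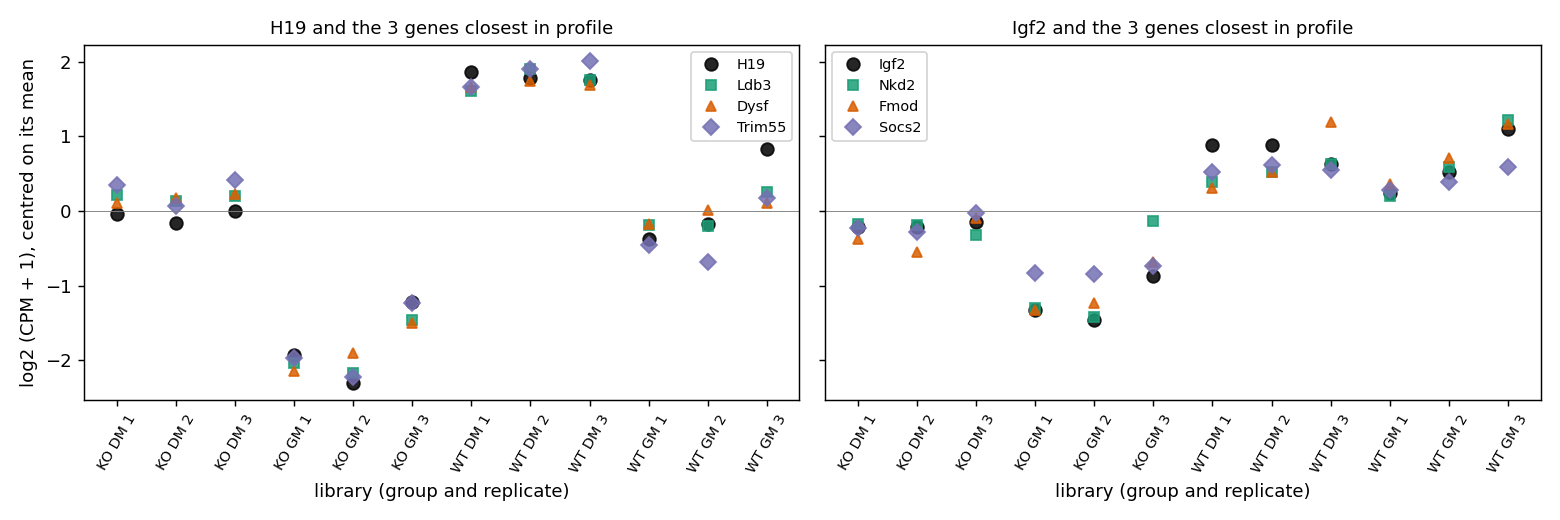
Log2(CPM + 1), centred on each gene's mean (vertical axis), in the 12 libraries (horizontal axis) for H19 and Igf2 with the 3 genes closest to each. H19 and its 3 neighbours were lowest in KO GM and highest in WT DM; Igf2 and its neighbours were lowest in KO GM, with the 2 WT groups alike in height.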

How the data were processed

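What the authors deposited was a single table with a raw count for each Ensembl gene and library, as whole numbers. The submitters' processing notes list, with no role, the build GRCm39, DESeq2 (1.40.2), R (4.3.1), RSEM (1.3.3) and STAR (2.7.1a); the counting tool, annotation and strand setting were not stated. Left out were 4 empty columns. The labels give paired-end reads of 150 bp from total RNA and the same batch date for all libraries. Of 55416 genes, 52083 had a symbol in the reference (GENCODE M21), which is of another build and was used for names, neighbours and, with RefSeq GRCm38.p6, sequences.

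Genes were kept by filterByExpr over the 4 groups, which left 13250 genes with 99.9% of counts. Of these, 430 passed through WT libraries alone and 272 through KO libraries alone, and for such genes a difference between the genotypes is a description. In R 4.3.3, edgeR 4.0.16 fitted 1 quasi-likelihood model to all 12 libraries with trimmed mean of M-values (TMM) scaling and robust dispersion, and 4 comparisons and the interaction (KO response minus WT response) were tested 2-sided, so the comparisons share libraries. A gene was called, and said to rise or fall, at a Benjamini-Hochberg adjusted p below 0.05. Each SE is the log2 fold change over the root of F, and CPM is TMM-scaled. A gene at 0 in a group was set at 3 counts over that group. Floors cover counting error only, because reads that carry no molecular identifiers can be copies of the same molecule. P-values measure the spread between libraries labelled as biological replicates. The fit was tested on simulated counts.

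The 9 genes and all lists were chosen with earlier results of these data known. Genes named were the 9, and other imprinted genes by size among those called, with some of those at 0 in a group. Named too were all tested targets of miR-675 and let-7, and up to 4 called genes of IGF signalling and of imprint maintenance. A panel of 8 genes of muscle and cell cycle, Mapk14 and the 3 genes closest to each tested gene were also named. Igf1r, Ctcf, Snrpn, Cdkn1c, Copg2 and their neighbours were added as relatives of the 9 after their values were seen. The alternatives were 3 other scalings, DESeq2 1.42.0, limma-voom (limma 3.58.1), no filter, a filter asking for 1 CPM and 10 counts in 3 libraries, no robust dispersion, a replicate block, only the 6 libraries of a comparison, each library left out and both GM replicate 3 libraries left out.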

Additional observations from a re-analysis of the deposited data

Results flagged for a closer look

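The response to DM differed between KO-labelled and WT cells, by edgeR's test of the difference itself, for 10 of the genes listed. That count covers the imprinted, target, IGF signalling and imprint maintenance lists and the panel of muscle and cell cycle, without the other cell type markers. Of all genes tested, 8.86% were called. The share called was 3.57% of 28 other imprinted genes, 36.4% of 11 IGF signalling genes and 16.7% of 12 imprint maintenance genes. It was 33.3% of 3 miR-675 targets and 25% of 4 let-7 targets. Among imprinted genes the gene was Peg10, with a KO minus WT difference of -1.27 on the log2 scale. In the muscle panel it was Myod1, the myogenic factor, with 0.64. Of the genes named as targets of miR-675 or let-7 the differences were -1.29 for Cdc6 and -1.81 for Hmga2. Of the IGF binding proteins they were -0.67 for Igfbp2, 1.14 for Igfbp3, 1.23 for Igfbp4 and 1.68 for Igfbp5. Of the imprint maintenance genes they were -1.34 for Zfp57 and -0.92 for Uhrf1. Outside that count, cell type markers with a called difference were Tubb3 (-1.42), Lyz2 (1.27), Des (0.52) and Cdh15 (0.40). The Igfbp4 difference (adjusted p = 0.0451) was lost under 6 alternatives, each of which left out 1 library. None of the 4 tested differences of H19, Igf2, Peg3 and Mest passed.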

How the results depend on the processing

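The calls of Peg3 and of Mest with DM held under each of 23 alternatives, as did those of H19 and Igf2 but for H19 in KO GM against WT GM (adjusted p = 0.0833 with only the 6 libraries). Igf2 in WT DM against WT GM ran from -0.05 to 0.41 with libraries left out, and its interaction (0.89) was called with limma-voom (adjusted p = 0.0369), without robust dispersion (0.0332), without WT GM replicate 1 (0.0459) and without both GM replicate 3 libraries (1.18e-05). Uncalled values that changed sign were the H19 interaction (-0.12 without KO GM replicate 2, -0.37 without WT GM replicate 3, -0.01 without both GM replicate 3 libraries), the Mest interaction (0.30 without KO GM replicate 3 and 0.36 without both), Mest in KO GM against WT GM (0.05 without KO GM replicate 2) and Ndn in WT DM against WT GM (-0.11 without WT DM replicate 3, -0.02 without WT GM replicate 1). With single libraries left out these ran from -0.37 to 0.46, from -0.32 to 0.30, from -0.57 to 0.05 and from -0.11 to 0.13. The cause was not tested.

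The 1 other imprinted gene called higher in KO DM against WT DM became 2 with total counts alone or with no filter and 3 with only the 6 libraries, and 1 to 3 with libraries left out. The count of the 9 genes with a higher interaction, 0, became 1 with limma-voom and without robust dispersion, and was 0 to 1 with libraries left out; that of other imprinted genes lower was 1 to 2. Other imprinted genes higher numbered 5 to 8 in KO DM against KO GM and 1 to 2 in KO GM against WT GM with libraries left out. Over all genes, 864 were higher in KO GM against WT GM with only the 6 libraries, against 1330 in the full fit. With libraries left out the interaction calls numbered 293 to 1373 higher (478 in the full fit) and 400 to 1336 lower (696 in the full fit), the highest of each without both GM replicate 3 libraries and, with single libraries left out, 969 and 951; total counts alone gave 683 higher and 498 lower. Scaling moved the median change of all genes by less than 0.1. Of 127 calls of other genes on the lists, 94 held under every alternative.

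Replicate numbers did not pair the libraries: correlations of same-numbered libraries ran from -0.11 to 0.22. With the replicate block no call of the 9 genes changed. In WT DM against WT GM and in KO DM against WT DM each library correlated best with its own number, which is a hint from the data and not the design. Depth limited Ndn, Usp29, Airn, Grb10 and Plagl1, whose counts were low.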
